A study of Homo sapiens with 2 samples.

Results

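The 45 genes described here form the machinery that copies chromosomal DNA and supplies its building blocks, and they were chosen by gene symbol. All 45 were found among the 13137 genes of the deposited table. They fall into the MCM helicase (6 genes), origin recognition and licensing factors (8), the GINS complex (4), the sliding clamp and its loader (6), DNA polymerases and primase (10), the single-strand binding protein RPA (3), Okazaki fragment maturation enzymes (3) and enzymes of nucleotide supply (5). The data are digital gene expression (DGE) libraries of A549, a human lung adenocarcinoma cell line. The control line, A549-H1tetO-shRNA-Con, expressed a scrambled shRNA, and the other line, A549-H1tetO-shRNA-SOX2, an shRNA against SOX2, each from a doxycycline-inducible H1 promoter. Cells of both lines were collected after 4 days with doxycycline, and 1 library was made for each line. The study asked which genes depend on SOX2, a transcription factor of stem cells, in these tumour cells. The lines were pools of drug-selected cells and 1 hairpin was used against SOX2, so an effect of that hairpin on other genes cannot be told apart from an effect of SOX2.

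Replication starts where the origin recognition complex sits on DNA and, with CDC6 and CDT1, loads the ring-shaped MCM helicase in G1 phase. In S phase GINS and CDC45 switch the helicase on, RPA coats the unwound strands, primase and polymerase alpha lay down primers, and the clamp loader RFC closes the PCNA ring that holds polymerases delta and epsilon on the template. Many of these genes are transcribed at the G1 to S transition under E2F transcription factors, and ribonucleotide reductase and thymidylate synthase make the deoxynucleotides that the fork consumes.

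The shRNA-Con library held 2304184 tags on genes and the shRNA-SOX2-labelled library held 2093816. The abbreviated column names of the deposited table were read as SC for shRNA-Con and S1 for shRNA-SOX2, and the direction of each difference rests on that reading. The targeted gene did not bear the label out, because SOX2 had 16 tags in the control and 23 in the shRNA-SOX2-labelled library, a ratio of 1.58 with an interval from 0.80 to 3.20 (Fisher's exact test, adjusted p = 0.333). For this reason the other library is called the shRNA-SOX2-labelled library throughout. SOX2 protein, which the study measured on blots, was not analysed here. Of a list of 10 epithelial and NRF2-type markers chosen for A549, 9 were found. Their sum was 42976 tags in the control and 50274 in the shRNA-SOX2-labelled library. The list includes general epithelial keratins and does not by itself identify the line. Its genes went both ways, with 4 called lower and 3 higher. EPCAM was low in this list, at 8 and 4 tags. Of 6 fibroblast markers 3 were found, with 46 and 54 tags in sum. Most of these were COL1A1, at 44 and 43 tags, more than EPCAM had, and PDGFRB had 0 and 2. Of 6 leukocyte markers 4 were found, with 15 and 21 tags in sum, of which CD14 had 11 and 10 and LYZ 0 and 4.

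Each gene is given below by its tags in shRNA-Con first and in the shRNA-SOX2-labelled library second. Its ratio is that of tags per 1000000 gene tags, the shRNA-SOX2-labelled library over shRNA-Con, with a 95% Clopper-Pearson interval. Tags are PCR products without molecular identifiers, so these intervals cover counting error only. With no replicates, a two-sided Fisher's exact test compared these libraries and not the conditions. A gene is called where the adjusted p over all 13137 genes was below the study's FDR of 0.001. In bulk RNA, fewer cells in S phase and less RNA per cell cannot be told apart.

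The 45 genes did not move together. Subunits of the helicase and of RPA, the clamp PCNA, a flap endonuclease and enzymes of deoxynucleotide synthesis were higher in the shRNA-SOX2-labelled library, while a clamp loader subunit, an origin recognition subunit and subunits of polymerases delta and epsilon were lower. The test called 8 genes higher, namely FEN1 (Entrez Gene ID 2237), TYMS (7298), MCM4 (4173), MCM2 (4171), RPA2 (6118), RRM1 (6240), RPA1 (6117) and PCNA (5111). It called 4 lower, namely POLD2 (Entrez Gene ID 5425), ORC5 (5001), RFC4 (5984) and POLE3 (54107), and 33 were not called. Over all genes tested, 9.53% were called higher and 12.2% lower, against 17.8% and 8.89% of the 45. The table holds many scarce genes, and over the 10045 genes that reached 20 tags in both libraries combined the shares were 12.2% higher and 15.8% lower. These calls assume no spread between cultures. With a coefficient of variation between cultures set to 0.1 in the exact test of edgeR, the calls that held were FEN1 and TYMS (higher) and POLD2 and ORC5 (lower), and with 0.2 none of the 45 was called.

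Of the 44 genes with at least 20 tags together, 13 (29.5%) were at least 1.5-fold higher and 10 (22.7%) at least 1.5-fold lower, where 20.5% and 26.6% of all genes with as many tags were. ORC6 had fewer tags. The median log2 ratio of the 44 was 0.03, with a range from -1.30 to 1.82, and 22 lay on either side of 0. Over all genes with at least 20 tags the median was -0.10. Tags summed over the 45 genes were 4672 and 4634, or 2030 and 2210 tags per 1000000 gene tags (ratio 1.09, 1.05 to 1.14). The near-equal sum holds opposite differences inside it, as the plot of tags in both libraries shows.

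**Figure D1:**
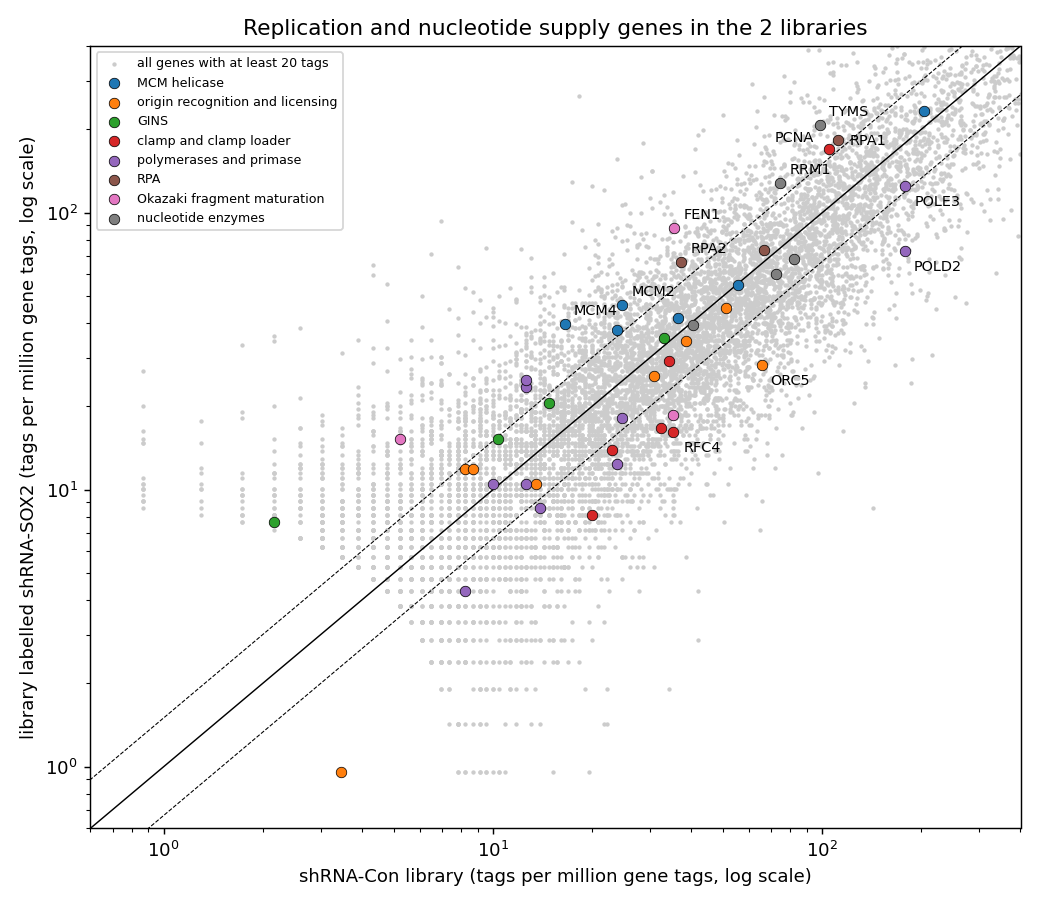
Tags per 1000000 gene tags in the shRNA-Con library (x axis, log scale) against the shRNA-SOX2-labelled library (y axis, log scale); coloured points are the 45 genes by complex, grey points are genes with at least 20 tags together, and the dashed lines mark a 1.5-fold difference. The 12 called genes are named, 8 above the diagonal and 4 below it; genes at 0 tags and those beyond the axes are not drawn.

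MCM2 to MCM7 form the hexameric helicase that unwinds the parental strands. MCM4 had 38 and 83 tags, a ratio of 2.40 (1.62 to 3.63, Fisher's exact test, adjusted p = 2.59e-05). MCM2 had 57 and 97 tags, a ratio of 1.87 (1.34 to 2.65, Fisher's exact test, adjusted p = 0.000663). MCM2 lost its call with clean-tag scaling (Fisher's exact test, adjusted p = 0.00343). MCM4 and MCM2 were the subunits called, both higher, and together with MCM6 they had the fewest tags of the ring in shRNA-Con. MCM6 had 55 and 79 tags, a ratio of 1.58 (1.11 to 2.27) that was not called (Fisher's exact test, adjusted p = 0.0276). MCM7 had 470 and 486 tags (ratio 1.14, 1.0 to 1.3). MCM5 had 84 and 87 tags and MCM3 had 128 and 115, and the intervals of both held 1. With TMM or median-ratio scaling the log2 ratio of MCM3, -0.02 here, was above 0.

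Summed over the helicase, tags were 832 and 947 (ratio 1.25, 1.14 to 1.38), and 5 of the 6 genes had a ratio above 1. The subunits are present in equal numbers in the complex, but their tags were not in equal numbers in either library. MCM7 held 56.5% (53.0 to 59.9) of the helicase tags in shRNA-Con and 51.3% (48.1 to 54.5) in the shRNA-SOX2-labelled library. MCM4 held 4.57% (3.25 to 6.22) and 8.76% (7.04 to 10.7), so its share of the helicase tags was higher beyond counting error. MCM2 held 6.85% (5.23 to 8.79) and 10.2% (8.38 to 12.4), with intervals that overlap. A tag count is taken once per transcript and does not depend on length, but the recovery of a gene's tag can differ between genes, so shares are compared between libraries and not between subunits.

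The factors that mark origins and load the helicase showed another picture. ORC5, an ATP-binding subunit of the origin recognition complex, had 151 and 59 tags, a ratio of 0.430 (0.313 to 0.585, Fisher's exact test, adjusted p = 9.44e-08). It was the gene of this group with the most tags in shRNA-Con and ranked after ORC4 and CDC6 in the other library. The other subunits found were not called. ORC2 had 71 and 54 tags, ORC4 had 89 and 72 and ORC3 had 19 and 25. ORC6 had 8 and 2 tags, and its ratio of 0.275 has an interval from 0.028 to 1.38. Tags summed over ORC2 to ORC6 were 338 and 212 (ratio 0.690, 0.579 to 0.822), a difference to which ORC5 contributes most.

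CDC6 and CDT1 bring the helicase to the origin, and MCM10 takes part in its activation. None was called. CDC6 had 118 and 95 tags (ratio 0.886, 0.669 to 1.17). CDT1 had 31 and 22 tags and MCM10 had 20 and 25. The depth of CDT1 and MCM10 leaves intervals from 0.431 to 1.39 and from 0.734 to 2.61, so a difference within these was not detectable. Over the 8 genes of origin recognition and licensing the tags were 507 and 354 (ratio 0.768, 0.669 to 0.882).

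GINS is a 4-subunit complex that joins CDC45 and the MCM ring in the active helicase. Every one of its genes had a ratio above 1 and none was called. GINS3 had 5 and 16 tags, a ratio of 3.52 with an interval from 1.23 to 12.3 (Fisher's exact test, adjusted p = 0.0395), a wide interval set by the few tags. GINS4 had 24 and 32 tags, GINS2 had 34 and 43, and GINS1 had 76 and 74. Scaled by clean tags, GINS1 had a log2 ratio below 0. The sum was 139 and 165 tags (ratio 1.31, 1.04 to 1.65).

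**Figure D2:**
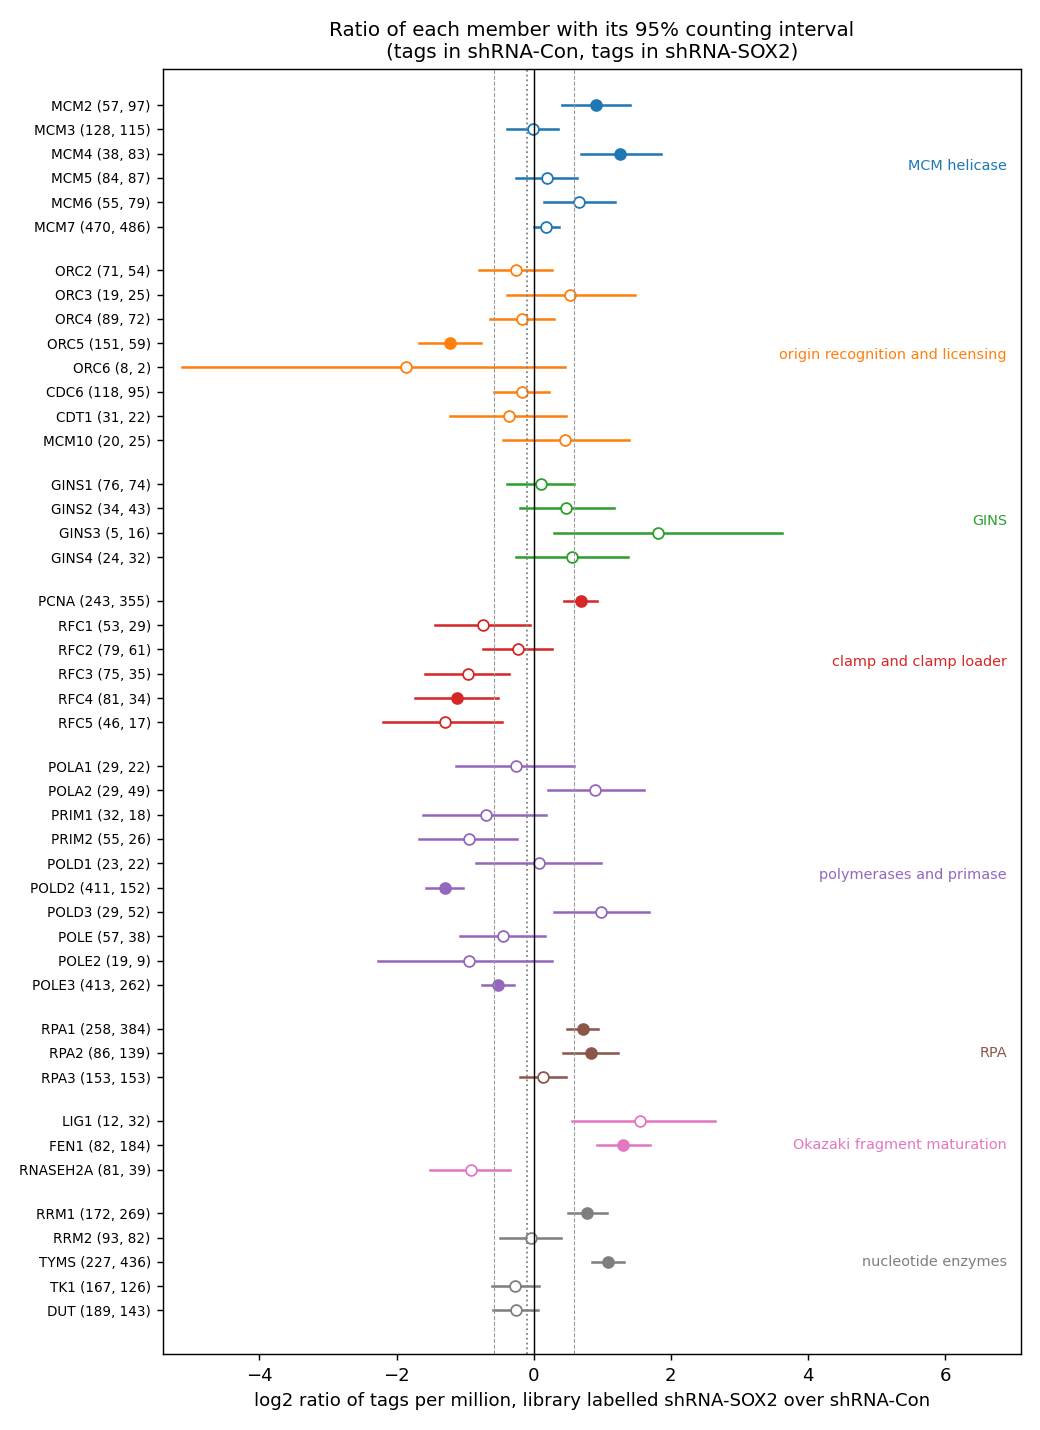
Log2 ratio of tags per 1000000 gene tags (x axis), the shRNA-SOX2-labelled library over shRNA-Con, for the 45 genes by complex, with the tags of both libraries in brackets; bars are 95% counting intervals, filled points passed FDR 0.001 in Fisher's exact test, the dotted line is the median of all genes with at least 20 tags and the dashed lines mark a 1.5-fold difference. The points of RFC1 to RFC5 all lie left of 0 and those of GINS and RPA right of it, while polymerases and primase lie on both sides.

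The sliding clamp and its loader went apart. PCNA, the ring that tethers polymerases to DNA, had 243 and 355 tags, a ratio of 1.61 (1.36 to 1.90, Fisher's exact test, adjusted p = 8.47e-08). RFC4, a small subunit of the loader that opens and closes this ring, had 81 and 34 tags, a ratio of 0.462 (0.300 to 0.697, Fisher's exact test, adjusted p = 0.000544). RFC4 lost its call with TMM and with median-ratio scaling. All 5 loader subunits had ratios below 1.

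Among the other loader subunits RFC5 had 46 and 17 tags (ratio 0.407, 0.219 to 0.723, Fisher's exact test, adjusted p = 0.00377) and RFC3 had 75 and 35 (ratio 0.514, 0.334 to 0.777, Fisher's exact test, adjusted p = 0.00418). Both missed the threshold, and RFC3 passed it when the libraries were scaled by clean tags. RFC1, the large subunit, had 53 and 29 tags (ratio 0.602, 0.369 to 0.964). RFC2 had 79 and 61 tags (ratio 0.850, 0.598 to 1.20). Summed over RFC1 to RFC5 the tags were 334 and 176, a ratio of 0.580 (0.480 to 0.698). The loader and PCNA together had 577 and 531 tags, a ratio of 1.01 (0.898 to 1.14) that hides both differences and whose direction turned below 1 with clean-tag scaling.

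Polymerase alpha and primase start each new strand. POLA2, the accessory subunit, had 29 and 49 tags (ratio 1.86, 1.15 to 3.05, Fisher's exact test, adjusted p = 0.0261), and POLA1, the catalytic subunit, had 29 and 22. PRIM2, the large primase subunit, had 55 and 26 tags (ratio 0.520, 0.313 to 0.844, Fisher's exact test, adjusted p = 0.0169), and PRIM1, the catalytic one, had 32 and 18. No gene of this 4-subunit enzyme was called, and its ratios lay on both sides of 1. The sum was 145 and 115 tags (ratio 0.873, 0.677 to 1.12).

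Polymerase delta, which extends the lagging strand, held the lower call with the smallest p among the 45 genes. POLD2, its accessory subunit, had 411 and 152 tags, a ratio of 0.407 (0.336 to 0.491, Fisher's exact test, adjusted p = 5.7e-22). POLD3 had 29 and 52 tags, a ratio of 1.97 (1.23 to 3.22, Fisher's exact test, adjusted p = 0.012) that was not called. POLD1, the catalytic subunit, had 23 and 22 tags, and its log2 ratio of 0.07 was below 0 with clean-tag scaling. The 3 subunits together had 463 and 226 tags (ratio 0.537, 0.456 to 0.631), and most of those tags were POLD2.

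In polymerase epsilon, the leading-strand enzyme, POLE3 was called lower. This histone-fold subunit had 413 and 262 tags, a ratio of 0.698 (0.596 to 0.817, Fisher's exact test, adjusted p = 2.79e-05), which is less than a 1.5-fold difference. The catalytic subunit POLE had 57 and 38 tags (ratio 0.734, 0.473 to 1.13). POLE2 had 19 and 9 tags (ratio 0.521, 0.208 to 1.21). The 3 genes summed to 489 and 309 tags (ratio 0.695, 0.601 to 0.803). Over the 10 polymerase and primase genes the tags were 1097 and 650 (ratio 0.652, 0.591 to 0.719), and without POLD2 they were 686 and 498 (ratio 0.799, 0.710 to 0.898).

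RPA, the trimer that coats single-stranded DNA, was higher in 2 of its 3 subunits. RPA1, the large DNA-binding subunit, had 258 and 384 tags, a ratio of 1.64 (1.4 to 1.93, Fisher's exact test, adjusted p = 6.63e-09). RPA2, the subunit that checkpoint kinases phosphorylate, had 86 and 139 tags, a ratio of 1.78 (1.35 to 2.36, Fisher's exact test, adjusted p = 0.000131). It lost its call with clean-tag scaling (Fisher's exact test, adjusted p = 0.00127). RPA3, the smallest, had 153 tags in both libraries (ratio 1.10, 0.874 to 1.39). The share of RPA3 in the tags of the trimer was 30.8% (26.8 to 35) in shRNA-Con and 22.6% (19.5 to 26) in the shRNA-SOX2-labelled library, which do not overlap. The sum was 497 and 676 tags (ratio 1.5, 1.33 to 1.68).

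**Figure D3:**
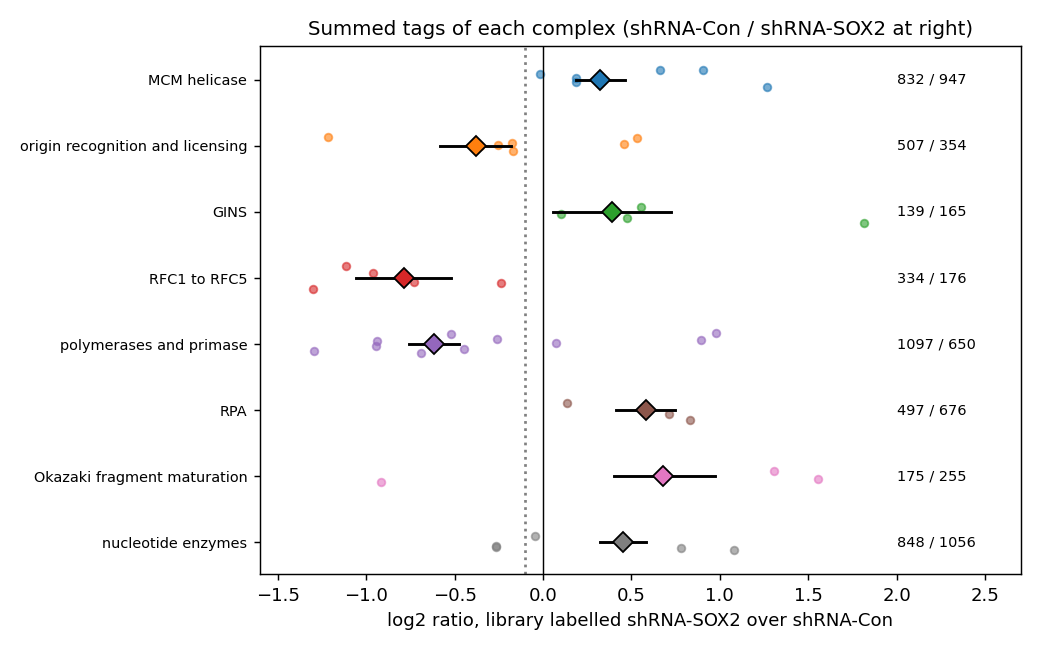
Log2 ratio (x axis) of tags per 1000000 gene tags, the shRNA-SOX2-labelled library over shRNA-Con, for 8 complexes; diamonds are the ratio of summed tags with its 95% counting interval, small points are the genes with at least 20 tags, figures at the right are the summed tags and the dotted line is the median of all genes. The sums of MCM, GINS, RPA, Okazaki fragment maturation and nucleotide enzymes lie right of 0 and those of origin recognition and licensing, RFC1 to RFC5 and polymerases and primase left of it.

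Okazaki fragments, the short pieces of the lagging strand, are trimmed by FEN1 and RNase H2 and sealed by LIG1. FEN1, a flap endonuclease, had 82 and 184 tags, a ratio of 2.47 (1.89 to 3.24, Fisher's exact test, adjusted p = 2.53e-11). LIG1, the replicative ligase, had 12 and 32 tags (ratio 2.94, 1.47 to 6.26, Fisher's exact test, adjusted p = 0.00473). RNASEH2A, the catalytic subunit of RNase H2, had 81 and 39 tags (ratio 0.530, 0.352 to 0.786, Fisher's exact test, adjusted p = 0.00371). LIG1 and RNASEH2A were not called and lay on opposite sides of 1, and RNASEH2A passed the threshold with clean-tag scaling. The 3 genes summed to 175 and 255 tags (ratio 1.6, 1.32 to 1.96).

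Thymidylate synthase and ribonucleotide reductase make deoxynucleotides de novo. TYMS, which converts dUMP to dTMP, had 227 and 436 tags, a ratio of 2.11 (1.80 to 2.49, Fisher's exact test, adjusted p = 1.52e-19). RRM1, the large reductase subunit, had 172 and 269 tags, a ratio of 1.72 (1.42 to 2.1, Fisher's exact test, adjusted p = 1.86e-07). Its S phase partner RRM2 had 93 and 82 tags (ratio 0.970, 0.712 to 1.32), so the subunits of 1 enzyme differed in their ratios and the intervals did not overlap. The log2 ratio of RRM2, -0.04, was above 0 with TMM and median-ratio scaling.

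TK1, the thymidine salvage kinase, had 167 and 126 tags (ratio 0.830, 0.654 to 1.05). DUT, which removes dUTP and yields the dUMP that TYMS uses, had 189 and 143 tags (ratio 0.833, 0.665 to 1.04). Neither was called (Fisher's exact test, adjusted p = 0.234 and 0.196). The 5 enzymes together had 848 and 1056 tags (ratio 1.37, 1.25 to 1.5), with the TYMS and RRM1 tags outweighing the other 3 genes.

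Neighbouring lists of the same processes set these values in context. Of 26 further replisome and origin factors 24 were found, 3 were called lower and none higher, and their median log2 ratio was -0.31. Shares over all genes were 12.2% called lower and 9.53% called higher. Over those with at least 20 tags the shares were 15.8% and 12.2%, and the median was -0.10. The count called lower is thus near the share over all genes. TOP2A, the topoisomerase that untangles sister chromatids, had 661 and 314 tags (ratio 0.523, 0.456 to 0.599, Fisher's exact test, adjusted p = 6.45e-21). MCMBP, an MCM-binding protein, had 208 and 84 tags, and RNASEH2B, a partner of RNASEH2A, had 134 and 54, each at a log2 ratio of -1.17 (Fisher's exact test, adjusted p = 8.4e-10 and 1.29e-06). ORC1 and CDC45, chosen after their values were seen because they complete complexes above, had 27 and 49 tags and 21 and 33 tags and were not called. Among 11 replication-coupled chromatin factors SLBP, the histone mRNA binding protein, was the gene called, with 173 and 79 tags (log2 ratio -0.99, Fisher's exact test, adjusted p = 1.49e-06), and the list's median was -0.16.

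Single genes among the other nucleotide supply genes differed more than any of the 5 enzymes above, in a longer list of which 21 genes were not called. Its summed tags had a log2 ratio of -0.25, smaller in size than the 0.45 of the 5 enzymes. All 30 were found, 6 were called lower and 3 higher, and the median log2 ratio was -0.20. Beside these stand 12.2% of all genes called lower and 9.53% called higher. Of the 30 genes 29 had at least 20 tags. Over all genes with as many tags the shares were 15.8% lower and 12.2% higher, and the median was -0.10. CTPS1, which makes CTP from UTP, had 433 and 62 tags, a ratio of 0.158 (0.119 to 0.206, Fisher's exact test, adjusted p = 2.67e-60). RRM2B, the p53-inducible small subunit of ribonucleotide reductase, had 145 and 428 tags, a ratio of 3.25 (2.69 to 3.95, Fisher's exact test, adjusted p = 6.02e-38). The reductase genes thus had 3 different ratios, above 1 for RRM1 and RRM2B and near 1 for RRM2. UCK2, a uridine-cytidine kinase, had 74 and 22 tags, and ADSL, of purine synthesis, had 142 and 52, at log2 ratios of -1.61 and -1.31 (Fisher's exact test, adjusted p = 6.77e-06 and 3.68e-08).

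Cell cycle genes were read beside these values, and most of them were not called. Of 12 G2 and mitosis genes 10 had a ratio below 1, with a median log2 ratio of -0.47, and 2 were called lower and none higher, beside 15.8% of all genes with as many tags called lower. CCNB1, a mitotic cyclin, had 238 and 134 tags and CENPF, a kinetochore protein, had 87 and 39 (Fisher's exact test, adjusted p = 4.57e-05 and 0.000775). The 16 E2F and G1/S regulators had 11 genes with at least 20 tags and a median of 0.19, with 2 of the 16 called higher and none lower, beside 9.53% of all genes called higher. CDKN1A, the CDK inhibitor p21, had 696 and 1941 tags, a ratio of 3.07 (2.81 to 3.35, Fisher's exact test, adjusted p = 6.88e-160). E2F2 had 0 and 12 tags (Fisher's exact test, adjusted p = 0.000653), and the lower 95% counting limit of its ratio is 3.06. The part of cell cycle position in the values of the 45 genes was not tested.

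**Figure D4:**
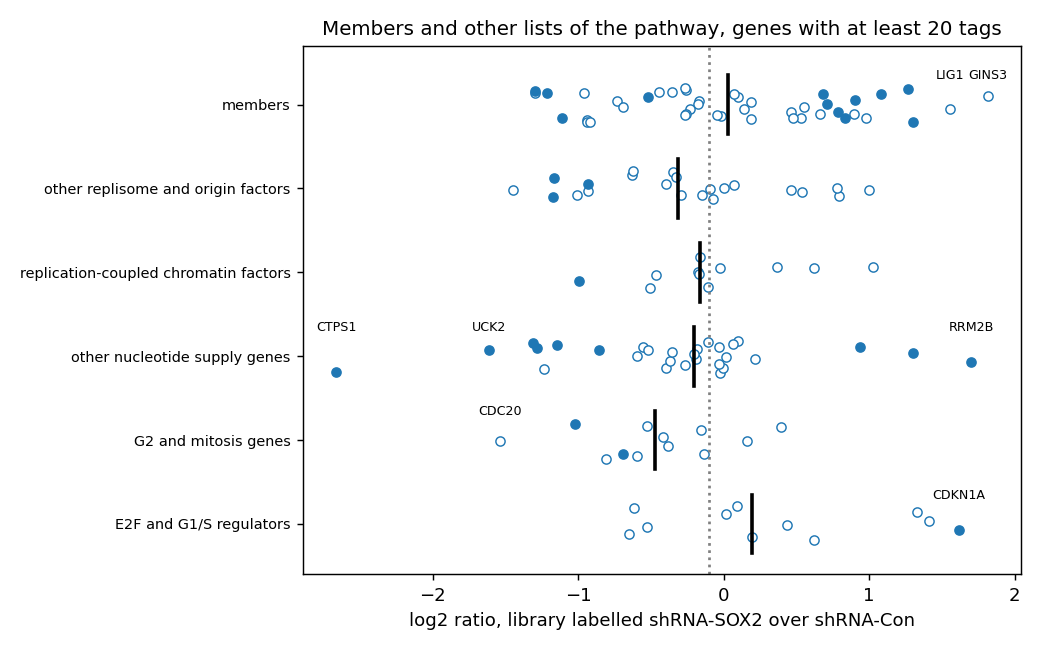
Log2 ratio (x axis) of tags per 1000000 gene tags, the shRNA-SOX2-labelled library over shRNA-Con, for each gene with at least 20 tags among the 45 replication genes (top row, members) and in 5 neighbouring lists. Filled points passed FDR 0.001 in Fisher's exact test, vertical bars are medians, the dotted line is the median of all genes and genes beyond 1.5 in size are named; the medians run from -0.47 for G2 and mitosis genes to 0.19 for E2F and G1/S regulators.

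Promoter sequences were examined for the sites that E2F and other factors recognise. RefSeq windows on GRCh38.p14, from 250 bases before to 50 bases after a gene start, were found for 39 of the 45 genes. Those not matched were MCM4, MCM5, GINS4, POLD3, RPA2 and RPA3. An E2F-type site (TTTCCCGC, TTTGGCGC or TTTCGCGC on either strand) was held by 19 of the 39 genes (48.7%), beside 3.30% of all 27305 genes with a window and 5.35% of the 10533 that are in the table. A CCAAT box (CCAAT, either strand) was held by 22 genes (56.4%), beside 39.7% and 43.1%. A SOX-type site (CATTGT, either strand) was held by ORC4, RFC1 and PRIM2 (7.69%), beside 13.0% and 9.09%. None of the motifs contains another, but TTTCGCGC can overlap its own match on the other strand.

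By call, E2F-type sites were held by MCM2, PCNA and TYMS of the 6 genes called higher that have a window, and by 0 of the 4 called lower. Of 29 genes not called, 16 held one. The genes are few, and a match of letters is no evidence of binding. The split also depends on the exact strings searched. Without its first letter, TTTCCCGC is matched in RFC4 and POLE3, called lower, and in RRM1, called higher. TTTGGCGC without its first letter is matched in RPA1, called higher. Shorter strings were not counted. The stretches below are shown because they belong to MCM2, PCNA and TYMS and, for contrast, to POLD2 and RFC4. The latter were called lower and hold none of the full strings. Each runs 160 bases 5′ to 3′ on the strand of the gene and ends at the base before the gene start, except for MCM2, whose stretch ends 14 bases into the gene because its sites lie there. Capitals mark E2F-type sites and CCAAT boxes. In MCM2 the capitals are a pair of overlapping E2F-type sites on opposite strands, in TYMS 1 E2F-type site, in PCNA 1 E2F-type site and 3 CCAAT boxes, and in POLD2 a CCAAT box, while RFC4 has none of them.
MCM2 (chr3:127598265-127598424, plus strand): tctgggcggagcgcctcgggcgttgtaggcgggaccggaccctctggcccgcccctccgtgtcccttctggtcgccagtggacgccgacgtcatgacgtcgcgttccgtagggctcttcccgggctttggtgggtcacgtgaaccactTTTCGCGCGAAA
PCNA (chr20:5126623-5126782, minus strand): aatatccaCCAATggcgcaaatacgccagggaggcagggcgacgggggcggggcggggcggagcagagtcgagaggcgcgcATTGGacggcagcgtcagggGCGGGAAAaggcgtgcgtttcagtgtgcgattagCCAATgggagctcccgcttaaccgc
TYMS (chr18:657493-657652, plus strand): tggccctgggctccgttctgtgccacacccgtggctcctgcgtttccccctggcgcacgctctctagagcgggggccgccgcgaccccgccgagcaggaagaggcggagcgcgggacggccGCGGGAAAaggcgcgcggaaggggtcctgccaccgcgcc
POLD2 (chr7:44123549-44123708, minus strand): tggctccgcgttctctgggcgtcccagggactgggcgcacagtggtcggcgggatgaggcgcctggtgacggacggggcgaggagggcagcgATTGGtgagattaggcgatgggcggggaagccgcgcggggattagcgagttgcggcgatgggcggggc
RFC4 (chr3:186806483-186806642, minus strand): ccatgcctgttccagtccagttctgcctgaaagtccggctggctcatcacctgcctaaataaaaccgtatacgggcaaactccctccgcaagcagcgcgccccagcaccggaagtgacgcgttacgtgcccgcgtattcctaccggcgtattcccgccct

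The E2F-type site of PCNA lies 59 to 52 bases before the gene start and that of TYMS 39 to 32 bases before it, both as the reverse complement of TTTCCCGC. PCNA has another annotated start with its own window, not printed, and that window holds no E2F-type site. Over the 38 genes with a window and at least 20 tags, the 19 with an E2F-type site had a median log2 ratio of 0.19, and 11 lay above 0 and 8 below. The 19 without had a median of -0.27, and 5 lay above 0 and 14 below. MCM4, MCM5, GINS4, POLD3, RPA2 and RPA3 have no window and stand in neither group. All of them had log2 ratios above 0, from 0.14 for RPA3 to 1.27 for MCM4, so the genes missing for want of a window are of the higher side. ORC6, with a window and no site, was left out for its few tags and had a log2 ratio of -1.28. Over all genes of the table with a window and as many tags, the medians were -0.10 with a site (482 genes) and -0.11 without (7811 genes). Genes with a site thus had the higher median among the replication genes with a window, while across the table the medians were near each other. This is a description without a test, and it was not repeated with shorter strings.

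**Figure D5:**
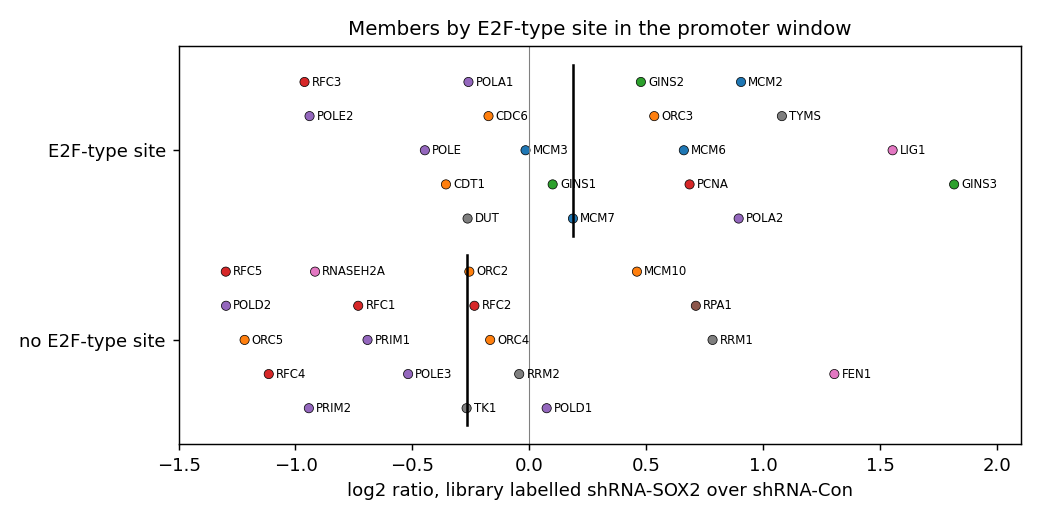
Log2 ratio (x axis) of tags per 1000000 gene tags, the shRNA-SOX2-labelled library over shRNA-Con, for the replication genes with at least 20 tags and a promoter window, coloured by complex and split by whether that window holds an E2F-type site; vertical bars are medians. The 19 genes with a site have a median of 0.19 and the 19 without have -0.27, with wide overlap.

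Some of these counts could include tags of other genes. Pseudogenes named after 10 of the 45 genes are annotated, among them those of the called genes PCNA, POLD2, RPA2, FEN1 and TYMS, and how tags shared with such copies were counted is not given in the sources used here. Exons of 23 genes overlap those of another gene in GENCODE release 29, 18 of them on the opposite strand, and strand use in the counting is not stated either. FEN1 (82 and 184 tags) overlaps FADS2 on its own strand, at 543 and 909 tags, and TMEM258 on the other, at 865 and 214. RFC5 (46 and 17 tags) overlaps WSB2, at 476 and 101 tags, and RFC4 (81 and 34) overlaps EIF4A2, at 403 and 755. FEN1 thus differed in the direction of FADS2 and opposite to TMEM258, RFC5 in the direction of WSB2, and RFC4 opposite to EIF4A2. The part of these neighbours in the values of FEN1, RFC4 and RFC5 was not tested.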

How the data were processed

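DGE libraries were made from 4 µg of total RNA by oligo(dT) capture at the Beijing Genomics Institute. The authors deposited tag counts per Entrez Gene ID, without normalization, and TPM, which is the count scaled to the clean tags of the library. The submitters' processing notes name hg19; the tag aligner, counter and annotation are not given in the sources used here. The authors' log2 ratio, p-value and FDR columns were not used. TPM served only to recover clean tags, 3516266 for shRNA-Con and 3456234 for the shRNA-SOX2-labelled library, of which 65.5% and 60.6% were on genes. A count of 0 allows a share of up to 0.00013% and 0.000143% (3 tags). Rows without a symbol (19, with 0.0535% and 0.0372% of tags) have IDs and were kept.

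Log2 ratios use tags per 1000000 gene tags, with a count under 3 set to 3; ratios and intervals use the counts as they are. Fisher's exact test was adjusted by Benjamini-Hochberg over 13137 genes (Python 3.11.15, scipy 1.17.1). Medians and fold counts need 20 tags together. Factors for scaling, and tests with a set spread, came from edgeR 4.0.16 and DESeq2 1.42.0 in R 4.3.3. The steps were tested on simulated data.

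All 45 genes are named, and from each neighbouring list those called, at most the 5 with the largest difference; the value of 1 such gene is not reported here. The members and lists were chosen with earlier results of these data known. CLSPN, POLE4, AKR1C1, COL1A2, COL3A1, DCN and CD3E were not matched and not analysed here. Alternatives were TMM, median-ratio and clean-tag scaling, other tag minimums, 0.5 added to each count, an FDR of 0.05, and edgeR's exact test with an assumed coefficient of variation.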

Additional observations from a re-analysis of the deposited data

How the results depend on the processing

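No paired analysis was possible because a single library stands for either condition, and for the same reason no library could be left out. Of the 45 genes, 4 were called lower and 8 higher; at FDR 0.05 these were 8 and 13. With edgeR's exact test they were 2 and 2 at an assumed coefficient of variation of 0.1 and 0 and 0 at 0.2, where 9 of the 45 had an unadjusted p under 0.05 (23 in Fisher's exact test). With clean tags MCM2 and RPA2 lost their calls. Genes at least 1.5-fold lower numbered 10 and higher 13 of 44, and 5 and 9 of 27 with a minimum of 100 tags. The median log2 ratio of the genes, 0.03, was 0.10 with TMM and 0.10 with median-ratio scaling and -0.0845 with clean tags, and stayed 0.13 above that of all genes under each scaling, since scaling moves every gene alike (all genes -0.10, and -0.03, -0.03 and -0.22). With no minimum of tags the order turned, at -0.0164 for the 45 genes and 0.0226 for all genes. With the median over genes in place of the sum, the log2 ratio of origin recognition and licensing was -0.17 (sum -0.38), of clamp and loader -0.85 (0.02), of Okazaki fragment maturation 1.30 (0.68) and of nucleotide enzymes -0.0435 (0.45), because genes with many tags rule the sums. Over all genes, calls lower and higher were 1597 and 1252, with TMM 1381 and 1414, with clean tags 2010 and 1008, at FDR 0.05 2754 and 2148, and at a coefficient of variation of 0.1 654 and 512 and of 0.2 48 and 65. Depth sets the counting error only, and the genes had 10 to 956 tags together. The spread between cultures is unknown with a single library for either condition.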
